A study of Mus musculus with 4 samples.

Results

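The nuclear genes of respiratory complex I were examined in sorted mouse regulatory T cells. Members were all protein-coding gene IDs of the deposited count table whose symbol begins with Ndufa, Ndufb, Ndufc, Ndufs or Ndufv, which gave 46 of 52636 gene IDs and of 21819 protein-coding ones. Of these, 8 are assembly factors (symbols beginning with Ndufaf) and 38 are not. Another 5 symbols with the same start were left out because the annotation does not class them as protein-coding. They were 4 processed pseudogenes, at 0 to 1.63 CPM (reads per megaread of the library total), and Ndufb1-ps, at 194 to 220.1 CPM, which RefSeq lists as the protein-coding gene Ndufb1.

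RNA came from CD4+CD62L+CD25bright cells of C57BL/6 mice aged 7 weeks. All 4 libraries carry Vav1R63W, a knock-in allele of the T cell receptor signalling protein Vav1. Group 1 carries Vav1R63W alone (replicates 2 and 3), and group 2, Vav1R63WThemis1-T-/-, also lacks Themis1 in T cells (replicates 2 and 3). The promoter that drives the deletion, and whether replicates came from separate animals, are not given in the sources used here, so any p-value speaks only of the spread among these 4 libraries, which may be technical.

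Complex I (NADH:ubiquinone oxidoreductase) is the entry point of electrons from NADH into the mitochondrial respiratory chain. Its matrix arm oxidises NADH in the N module and hands the electrons along iron-sulfur clusters to ubiquinone in the Q module, and its membrane arm pumps protons. A conserved core of 7 nuclear and 7 mitochondrially encoded subunits carries out the chemistry, accessory subunits surround it, and assembly factors build it without staying in the finished enzyme. Regulatory T cells are known to rely on oxidative phosphorylation more than activated conventional T cells do.

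Gene-assigned reads numbered 13963670 to 15953194 per library. Foxp3, the lineage factor, was at 636 to 1014 CPM and Il2ra, which encodes CD25, at 223 to 325 CPM. All 5 monocyte and macrophage markers examined had no read in any library, as did 3 of 5 B cell, 1 of 2 CD8 T cell and 2 of 3 NK cell markers. The B cell list summed to 68.0 and 68.9 CPM in the Vav1R63W libraries and to 37.9 and 62.7 CPM in the others. The CD8 T cell list summed to 26.1 and 38.5 CPM against 30.3 and 19.3 CPM. The NK cell list summed to 11.9 and 1.18 CPM against 1.57 and 0 CPM. The part of these lists in the results was not tested. For Themis itself, Vav1R63W replicates 2 and 3 gave 283 and 97 reads, against 685 and 0 under the Themis1-deleted label (replicates 2 and 3). The targeted gene goes against the label of replicate 2, so every direction below is between labels, and values without that library are given beside the leading ones.

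Of the 46 members, 45 had enough reads to be tested. Ndufa4l2, a paralogue of Ndufa4, had 0 reads in all 4 libraries. By edgeR's quasi-likelihood test with Benjamini-Hochberg adjustment over 10216 genes, 0 members were called in either direction, against 0% of all genes. The smallest adjusted p of a member was 0.903, and 1 member had an unadjusted p under 0.05, where 4.98% of all genes did. limma-voom also called 0 members (3 at an unadjusted p under 0.05, against 4.73% of all genes). DESeq2 called 0 of the 45, where it called 1.92% of all genes (0.791% higher and 1.13% lower), and 1 member was at an unadjusted p under 0.05, against 8.33% of all genes. The authors' deposited table called 0 of the 45, against 1.56% of all genes, with a smallest member adjusted p of 0.0766. There, 8 members were at an unadjusted p under 0.05, against 9.87% of the 7865 genes with an adjusted p. With replicate 2 of the Themis1-deleted label left out, edgeR again called 0 members (3 at an unadjusted p under 0.05, against 1159 of 11579 genes, or 10%), and the smallest member adjusted p was 0.457.

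Together the members took a nearly constant part of each library. Their summed level was 8132 and 8503 CPM in Vav1R63W replicates 2 and 3, and 8386 and 8639 CPM under the Themis1-deleted label (replicates 2 and 3). Single members differed more, and in both directions. The difference between groups of mean log2(CPM + 1) was positive for 24 tested members and negative for 21, with a median of 0.02 (interquartile range -0.25 to 0.24) beside -0.05 over all genes tested. Scaling by the trimmed mean of M values (TMM) in edgeR moved that split to 26 and 19. Libraries of the Themis1-deleted label lay both above the Vav1R63W libraries for 10 members and both below for 10, so that the groups did not overlap for 20 of 45 (44.4%). Among all genes tested the share was 33.8%, with 15.1% above and 18.7% below. At a mean of at least 100 CPM it was 14 of 33 members (42.4%) beside 34.0% of all such genes.

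**Figure D1:**
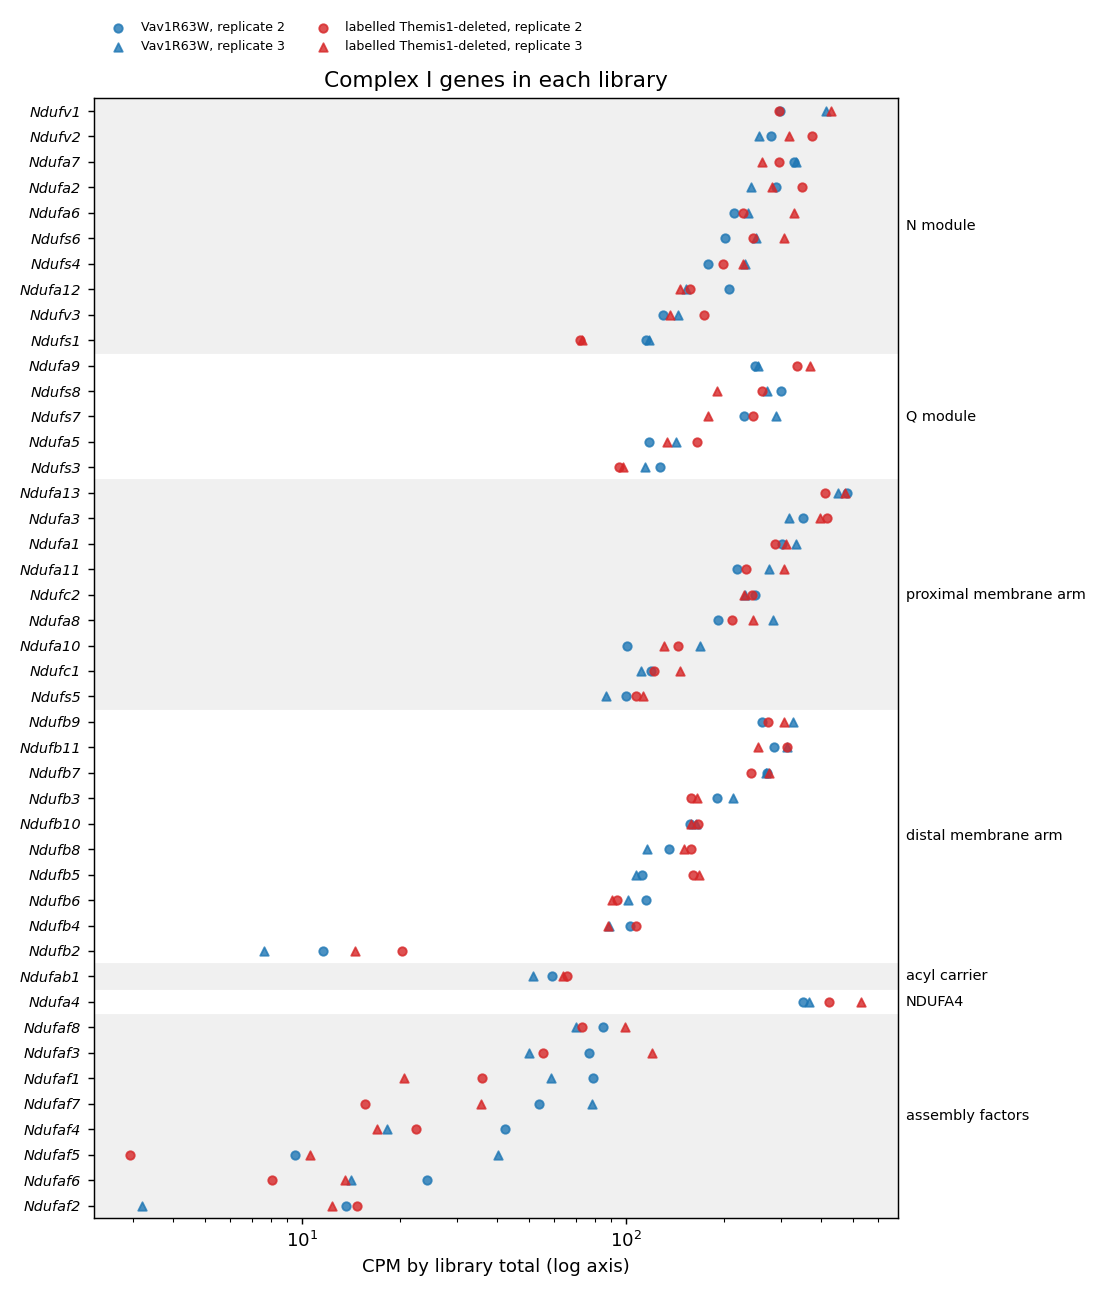
Each row is a tested member (1 is not drawn) and each point 1 library, with CPM by library total on a log axis. Blue marks Vav1R63W and red libraries of the Themis1-deleted label, circles replicate 2 and triangles replicate 3. Members are grouped by their place in the enzyme. Points of most subunits lie close together at around 100 CPM and above, and those of the assembly factors lie lower and farther apart.

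Levels can be set side by side only per length, here as CPM per kilobase of annotated exons. Ndufa1, a small subunit of the membrane arm, was highest at 739 CPM per kilobase, followed by Ndufa2 of the N module at 508. Next came Ndufa13 and Ndufa3, both at 363 CPM per kilobase. The assembly factors had a median of 12.6 CPM per kilobase against 137 for the other tested members. The highest assembly factor was Ndufaf8, at 98.1 CPM per kilobase. The lowest member with reads was Ndufb2, at 2.40 CPM per kilobase. Exons of all annotated transcripts enter the length, which lowers members with long rare exons. Ndufs1 has 8086 exonic bases, Ndufab1 6883 and Ndufb2 5628. Ndufb2 also overlaps other genes, which bears on its count as given below.

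The N module holds the flavoprotein and the first iron-sulfur clusters. Ndufs1 (ENSMUSG00000025968, GRCm38 chromosome 1, 63143596 to 63176833, minus strand), its large iron-sulfur subunit, was at 115 and 117 CPM in Vav1R63W replicates 2 and 3, and at 72.0 and 73.0 CPM under the Themis1-deleted label (replicates 2 and 3). Both groups were tight and did not overlap (116 ± 1.81 against 72.5 ± 0.673 CPM, SD, n = 2 each). edgeR gave a log2 fold change of -0.65 ± 0.28 (SE, adjusted p = 1.000), and -0.63 with replicate 2 of the Themis1-deleted label left out.

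Ndufv2, a core subunit that carries an iron-sulfur cluster beside the flavoprotein, went the other way, at 281 and 257 CPM against 375 and 318 CPM. Its groups did not overlap either, with a log2 fold change of 0.39 ± 0.17 (SE, edgeR adjusted p = 1.000). With replicate 2 of the Themis1-deleted label left out, the log2 fold change of Ndufv2 was 0.29. Ndufv1, the flavoprotein that binds NADH, was at 299 and 413 CPM in Vav1R63W cells and 296 and 428 CPM in the others, so the replicates of each group stood farther apart than the groups. The fold change of Ndufv1 was log2 0.05 ± 0.30 (SE), and it ran from -0.27 to 0.33 with each library left out in turn. Among the accessory members of the module, Ndufa7 was at 329.8 and 335 CPM against 296 and 263 CPM, without overlap. Its log2 fold change was -0.23, and -0.30 without replicate 2 of the Themis1-deleted label. Over the 10 members of the N module the median log2 difference was 0.12, with 7 positive, 3 negative and 0 called.

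In the Q module, where ubiquinone is reduced, Ndufs3, Ndufs7 and Ndufs8 had lower means in libraries of the Themis1-deleted label, and both accessory subunits had higher ones. Ndufs8, which carries a pair of iron-sulfur clusters, was at 301 and 273 CPM in Vav1R63W cells and 262 and 191 CPM in the others (287 ± 19.97 against 227 ± 50.1, SD, n = 2 each). Ndufs3 was at 127 and 115 CPM against 95.03 and 97.8 CPM. Neither overlapped between groups, and their log2 fold changes were -0.32 ± 0.21 and -0.30 ± 0.26 (SE).

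Ndufs7, which holds the last iron-sulfur cluster of the chain, was at 231 and 289 CPM against 246 and 178 CPM, with overlap. In Ndufs7 and Ndufs8 the lowest library was replicate 3 of the Themis1-deleted label. With replicate 3 of the Themis1-deleted label left out, their log2 fold changes were -0.09 and -0.13, and without replicate 2 they were -0.50 and -0.54. The value of Ndufs7 was -0.079 without Vav1R63W replicate 3 and -0.46 without Vav1R63W replicate 2. edgeR gave an adjusted p of 1.000 for Ndufs3, Ndufs7 and Ndufs8.

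Ndufa9 (ENSMUSG00000000399, GRCm38 chromosome 6, 126821721 to 126849136, minus strand), an accessory subunit at the junction of the arms, had the smallest p of all members. It was at 249.9 and 256 CPM in Vav1R63W replicates 2 and 3 and at 338 and 369.9 CPM under the Themis1-deleted label (replicates 2 and 3). Both latter libraries were above both former ones (253 ± 4.0 against 354 ± 22.7 CPM, SD, n = 2 each). The log2 fold change was 0.51 ± 0.17 (SE, edgeR unadjusted p = 0.0321, adjusted p = 0.903), and 0.59 with replicate 2 of the Themis1-deleted label left out. In the authors' deposited table Ndufa9 had an adjusted p of 0.0766. The other accessory member, Ndufa5, overlapped between groups, at 118 and 143 CPM against 165 and 133 CPM.

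The 28 accessory subunits of all modules had a median log2 difference of 0.07, with 17 positive and 11 negative. These counts are no test, and edgeR called 0 of the 28 (1 at an unadjusted p under 0.05). Libraries of the Themis1-deleted label were both above for 7 and both below for 3 of them, beside 15.1% and 18.7% of all genes tested.

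**Figure D2:**
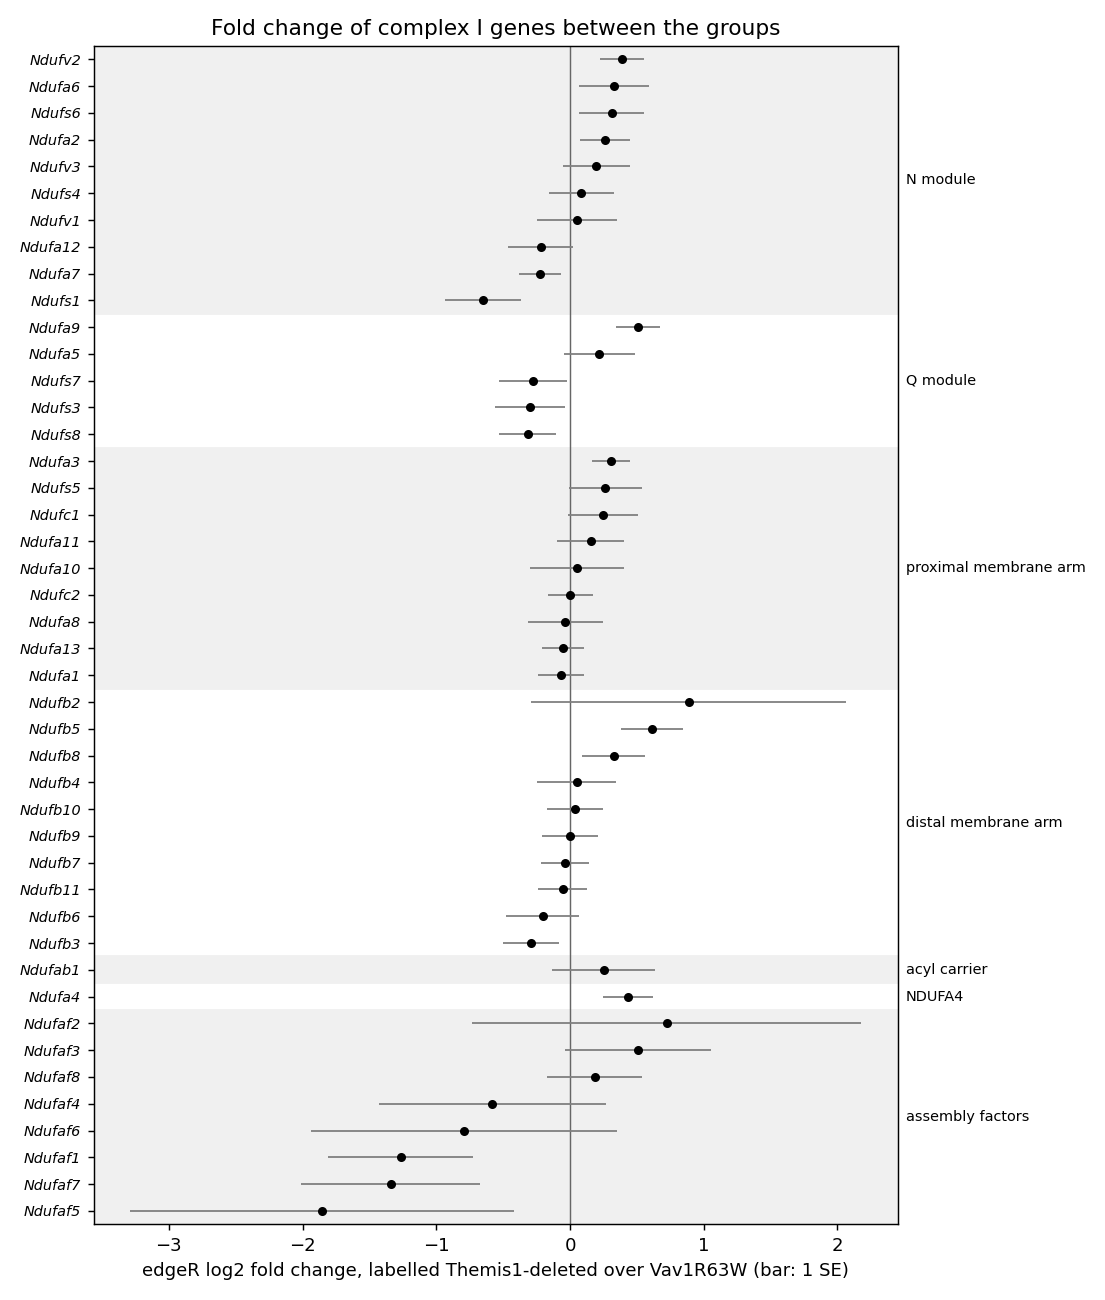
The edgeR log2 fold change of each tested member but 1 (point) with 1 SE on either side (bar) is plotted by place in the enzyme, with positive values higher in libraries of the Themis1-deleted label. Ndufs3, Ndufs7 and Ndufs8 sit between -0.32 and -0.28, and the widest bars are those of Ndufaf2, Ndufaf5, Ndufb2 and Ndufaf6.

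In the proximal part of the membrane arm 9 members had a median log2 difference of 0.08 and ranged from -0.09 for Ndufa1 to 0.28 for Ndufa3. Ndufa3, an accessory subunit, was at 351 and 319 CPM in Vav1R63W cells and 418 and 396 CPM in the others. Its groups did not overlap, with a log2 fold change of 0.31 ± 0.14 (SE, edgeR adjusted p = 1.000). With replicate 2 of the Themis1-deleted label left out, the log2 fold change of Ndufa3 was 0.29. Ndufa13, also known as GRIM-19, was the most abundant subunit by CPM in Vav1R63W replicate 2, at 481 CPM, with 452, 409.8 and 475 CPM in the other libraries, and overlapped between groups. Ndufc2 had the flattest profile among these, from 231 to 251 CPM.

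In the distal part the median over 10 members was -0.003 on the same scale, with 5 positive and 5 negative. Ndufb5 (ENSMUSG00000027673, GRCm38 chromosome 3, 32736990 to 32751566, plus strand) had the largest positive difference among the members there with a mean of at least 100 CPM. It was at 112 and 107 CPM in Vav1R63W replicates 2 and 3 and at 160.4 and 168 CPM under the Themis1-deleted label (replicates 2 and 3). The replicates of each group lay close together and the groups apart (109.5 ± 3.29 against 164 ± 5.27 CPM, SD, n = 2 each). edgeR gave a log2 fold change of 0.61 ± 0.23 (SE, adjusted p = 1.000), and 0.66 with replicate 2 of the Themis1-deleted label left out. Ndufb3 was lower in both of those libraries, at 191 and 214 CPM against 158 and 166 CPM. Ndufb10, Ndufb9 and Ndufb7, by contrast, had log2 fold changes between -0.04 and 0.04 and overlapped.

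A pair of members is not, or not only, part of complex I. Ndufa4, now placed in cytochrome c oxidase, was at 353 and 367 CPM in Vav1R63W cells and 423 and 532 CPM in the others, with no overlap (log2 fold change 0.44 ± 0.19, SE, edgeR adjusted p = 1.000). With replicate 2 of the Themis1-deleted label left out, that value was 0.61, and without replicate 3 it was 0.23. Ndufab1, the mitochondrial acyl carrier protein, which also serves fatty acid synthesis, was at 59.1 and 51.7 CPM against 65.7 and 63.7 CPM in the unstranded counts.

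The assembly factors differed more between replicates than the other members did, by the medians given below. Ndufaf8 was among the closer ones, with absolute log2 differences of 0.27 in Vav1R63W cells and 0.43 in the others. Outside the assembly factors, single members such as Ndufa10 reached 0.74 in Vav1R63W cells. Ndufaf1 (ENSMUSG00000027305, GRCm38 chromosome 2, 119655446 to 119662827, minus strand), which helps to assemble the membrane arm, was at 78.9 and 58.5 CPM in Vav1R63W replicates 2 and 3 and at 35.8 and 20.6 CPM under the Themis1-deleted label (replicates 2 and 3). The groups did not overlap (68.7 ± 14.4 against 28.2 ± 10.8 CPM, SD, n = 2 each). edgeR put the log2 fold change at -1.26 ± 0.54 (SE, adjusted p = 1.000), -1.69 with replicate 2 of the Themis1-deleted label left out, and -0.94 without replicate 3. Ndufaf7, an arginine methyltransferase, was at 53.9 and 78.5 CPM against 15.6 and 35.5 CPM, again without overlap. Ndufaf7 had a log2 fold change of -1.34 ± 0.67 (SE, edgeR adjusted p = 1.000), -0.86 without replicate 2 of that group and -2.09 without its replicate 3.

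Ndufaf6 was at 24.3 and 14.1 CPM in Vav1R63W cells and 8.09 and 13.5 CPM in the others, where the nearest libraries of the groups nearly touched. The remaining 5 overlapped. Ndufaf5, which hydroxylates Ndufs7, was at 9.50 and 40.1 CPM against 2.95 and 10.5 CPM, so that it varied within each group about as much as between them (log2 fold change -1.85 ± 1.43, SE). That value was -0.43 without Vav1R63W replicate 3, and under the Themis1-deleted label it was -1.20 without replicate 2 and -3.09 without replicate 3. Ndufaf3 was at 76.6 and 50.01 CPM against 55.2 and 120.3 CPM, and its log2 fold change of 0.51 ran from -0.20 to 0.97 with each library left out in turn, the lowest being without replicate 3 of the Themis1-deleted label. Ndufaf4, a partner of Ndufaf3 in early assembly, was at 42.2 and 18.2 CPM against 22.5 and 17.0 CPM. Ndufaf2 was at 13.6 and 3.19 CPM against 14.8 and 12.3 CPM, from 46 to 236 reads a library. Ndufaf8, a partner of Ndufaf5, was at 84.7 and 70.2 CPM against 73.3 and 99.0 CPM.

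Over the 8 assembly factors the median log2 difference was -0.62, with 5 negative, 3 positive and 0 called, and 3 lay both below the Vav1R63W libraries, beside 18.7% of all genes tested. Within groups their libraries differed by a median of 0.67 in Vav1R63W cells and 0.72 in the others (absolute log2 difference). The other 37 tested members differed by 0.15 and 0.20, and all genes tested, at a median level of 27.4 CPM, by 0.60 and 0.77. At a mean of at least 100 CPM, members differed by 0.15 and 0.20 and all such genes by 0.25 and 0.31. Assembly factors also had fewer reads behind them, with a median level of 35.4 CPM against 236 CPM. The group difference was larger than both within-group differences for 3 of the 8 assembly factors and 14 of the other 37 members, beside 21.3% of all genes tested.

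**Figure D3:**
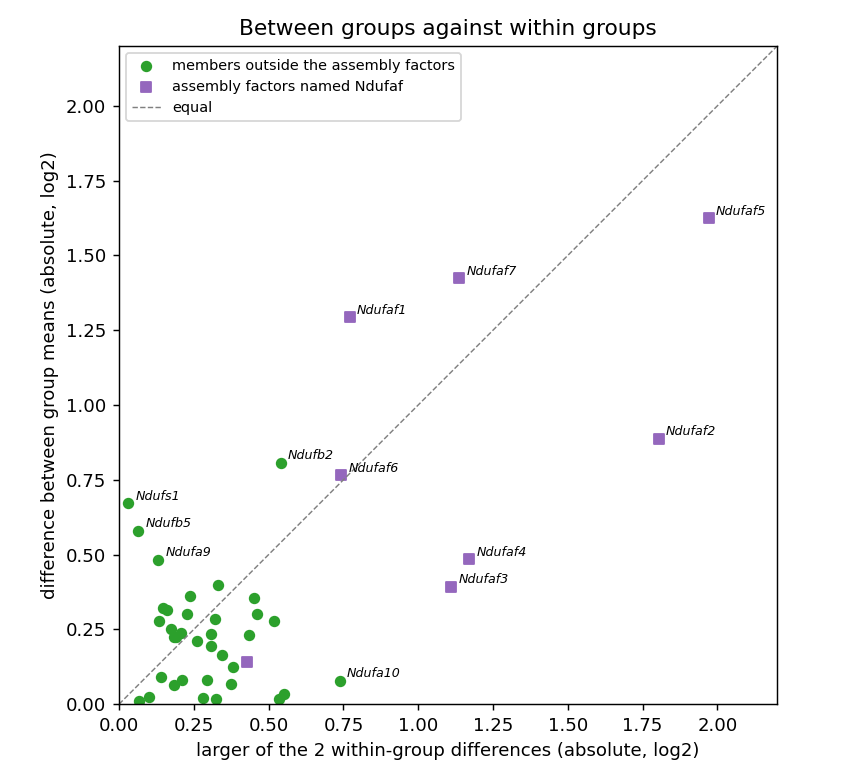
For each tested member but 1, the absolute difference between group means (vertical axis) is plotted against the larger of its within-group differences (horizontal axis), both on the log2(CPM + 1) scale, with the dashed line marking equality. Ndufs1, Ndufb5 and Ndufa9 lie well above the line near the left edge, and Ndufaf5, Ndufaf2, Ndufaf4 and Ndufaf3 lie below it at the right.

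The counting bears on several of the members named above. The library kit does not mark strand. In unstranded counting a read on bases that are exonic in genes of both strands is assigned to neither gene. Summing the separate counts of both strands returns such reads to each gene that they overlap, including reads that belong to the neighbour. It does not return reads on exons shared by genes of the same strand. Such overlap covered 19.5% of exonic bases of Ndufb9 (Gm49356), 4.26% of Ndufb8 (Gm20538) and 2.58% of Ndufb2 (Gm42420). For 6 members that sum was over 1.2 times the unstranded count. It was 3.03 times for Ndufab1, whose exons overlap Gm44986, 1.96 times for Ndufb6, 39.0% of whose exonic bases overlap Smim27, and 1.51 times for Ndufb5, which overlaps Mrpl47. The ratio was 1.48 for Ndufb2, 1.29 for Ndufa9, which overlaps the antisense gene 1700018A23Rik, and 1.25 for Ndufs1, which overlaps Eef1b2.

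Summed over strands, Ndufa9 was at 296 and 309 CPM in Vav1R63W cells and 383 and 443 CPM in the others, Ndufb5 at 151 and 143 CPM against 222 and 239 CPM, and Ndufs1 at 129 and 134 CPM against 83.0 and 82.2 CPM. The edgeR log2 fold changes from those sums were 0.48, 0.68 and -0.64, beside 0.51, 0.61 and -0.65 from the unstranded counts. Ndufab1, in contrast, was at 164 and 158 CPM against 147 and 199 CPM, so its groups overlapped once the strands were summed. By those sums 18 of 45 members did not overlap between groups, beside 33.7% of all genes. For 8 members the annotation holds at least 1 near-identical copy elsewhere (Ndufa12, Ndufab1, Ndufb11, Ndufb3, Ndufb4, Ndufs3, Ndufs5 and Ndufs6), whose own counted reads in the 4 libraries together numbered from 2 for the copy of Ndufb3 to 146 for that of Ndufs5. Reads shared with such copies are uncertain.

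**Figure D4:**
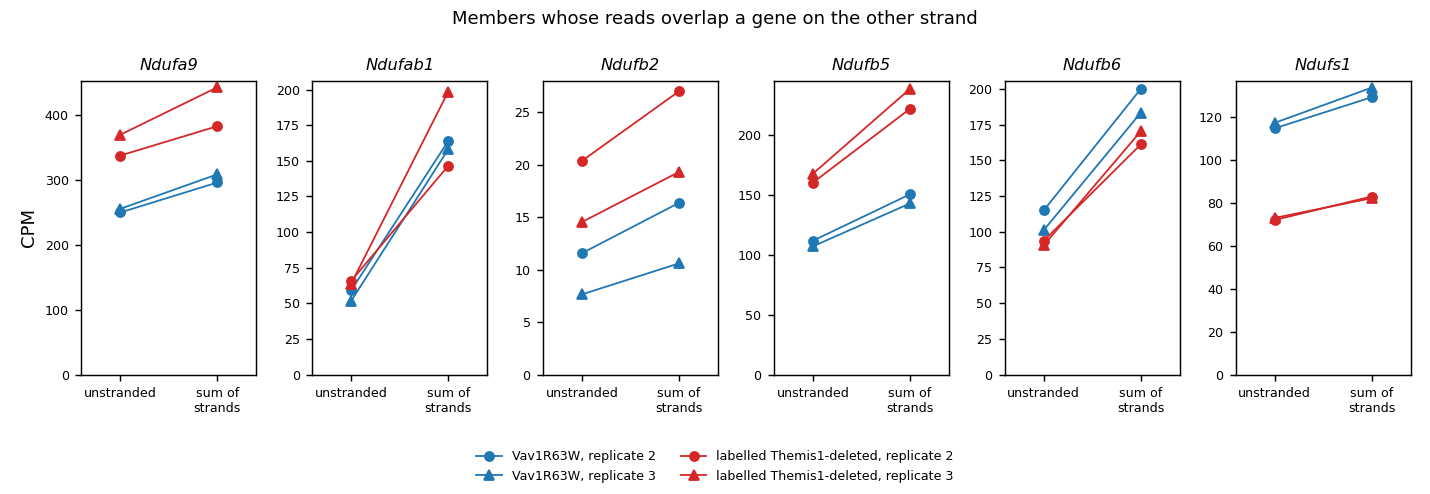
Levels (CPM, axes starting at 0) are shown for the 6 members whose summed strand counts exceeded the unstranded count by over 1.2 times, with 1 line per library joining both ways of counting. Blue is Vav1R63W, red libraries of the Themis1-deleted label, circles replicate 2 and triangles replicate 3. Order between groups is kept in Ndufa9, Ndufb2, Ndufb5, Ndufb6 and Ndufs1, and the groups overlap in Ndufab1 only after summing.

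Other genes of the pathway give the setting, and edgeR called 0 in each of these lists. Of 6 tested mitochondrially encoded complex I subunits, 5 were higher in both libraries of the Themis1-deleted label, beside 15.1% of all genes tested, and the median log2 difference was 0.39. These counts are no test. mt-Nd4 was at 165 and 149 CPM against 249 and 226 CPM (log2 fold change 0.62 ± 0.19, SE, edgeR adjusted p = 0.900), and mt-Nd2 at 551 and 521 CPM against 677 and 782 CPM. With replicate 2 of the Themis1-deleted label left out, the log2 fold changes of mt-Nd4 and mt-Nd2 were 0.57 and 0.59. In that list 2 of the 6 had an unadjusted p under 0.05, against 4.98% of all genes. The authors' deposited table called 1 of the 6, against 1.56% of all genes, and mt-Nd4l had 0 reads in all libraries. Assembly factors with other names, 10 tested, had a median of -0.04 with 5 of each sign. Among them Tmem126b was at 61.4 and 54.0 CPM against 36.3 and 14.3 CPM, and Tmem70 at 45.5 and 35.6 CPM against 62.7 and 83.2 CPM.

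The median log2 difference was -0.06 over 4 complex II subunits, 0.01 over 9 complex III subunits, 0.09 over 10 complex IV subunits and 0.12 over 15 ATP synthase subunits. Uqcrfs1, the Rieske iron-sulfur protein of complex III, was at 248 and 311 CPM against 234 and 147 CPM. Cox5b of complex IV was at 192 and 198 CPM against 241 and 273 CPM, and Atp5j of ATP synthase at 518 and 488 CPM against 577 and 658 CPM. Genes that make iron-sulfur clusters, the cofactors of the N and Q modules, had a median of -0.03 over 10 members, with Glrx5 at 163 and 138 CPM against 169 and 179 CPM and Iscu at 92.5 and 129 CPM against 114 and 43.5 CPM. Regulators of mitochondrial biogenesis had a median of -0.38 over 10 members, with 4 positive and 6 negative. Nrf1, a transcription factor of respiratory chain genes, was at 114 and 185 CPM against 40.0 and 103 CPM (log2 fold change -1.03 ± 0.60, SE, edgeR adjusted p = 1.000). The value for Nrf1 was -0.61 without Vav1R63W replicate 3, and under the Themis1-deleted label it was -0.50 without replicate 2 and -1.91 without replicate 3. Ppargc1b, a coactivator of mitochondrial biogenesis, drew 88 and 104 reads from Vav1R63W libraries and 0 from both others (edgeR adjusted p = 0.900).

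**Figure D5:**
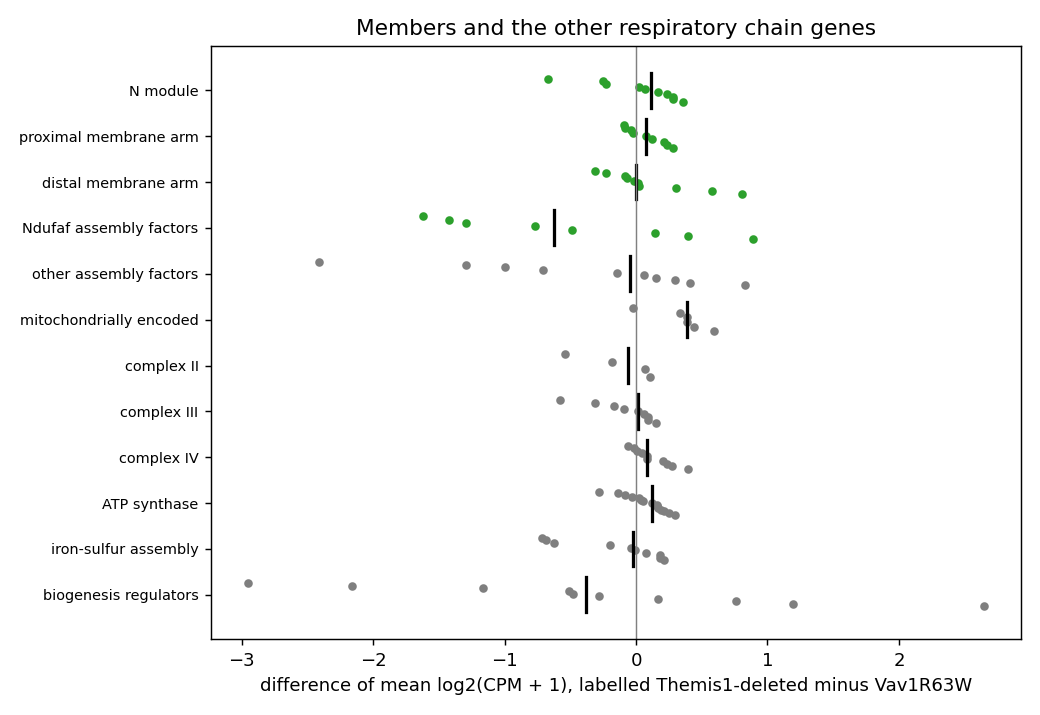
Each point is a tested gene, placed by its difference of mean log2(CPM + 1) between groups, and the black bar is the median of its list. Green lists are complex I members (the Q module, Ndufa4 and Ndufab1 are not drawn) and grey lists other genes of the pathway. Medians range from -0.62 for the Ndufaf assembly factors to 0.39 for the mitochondrially encoded subunits, and biogenesis regulators spread the widest.

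Promoter sequence is a property that the choice of members did not use. RefSeq windows (GRCm38.p6), from 250 bases before to 50 after a transcript start, were found for 40 of the 46 members, 42 windows in all. Among the others, Ndufa2, Ndufa4l2, Ndufaf6, Ndufb9 and Ndufs1 had no entry. Motifs of factors known for respiratory chain genes were searched on both strands, and no NRF1, YY1 or ETS match overlapped another. GC box matches were left out of that check. The palindromic consensus of NRF1, 10 bases long, was in 10 of 42 windows (23.8%), against 11.2% of windows of genes tested here and 4.6% of all windows. AAGATGGCG, for YY1, was in 6 (14.3%), against 3.54% and 1.4%, and in all 6 it began between 10 and 35 bases after the start. CCGGAAG, for ETS factors, was in 6 (14.3%), against 20.4% and 8.86%, and GGGCGG, the GC box, in 22 (52.4%), against 63.5% and 35.7%. Overlapping windows of Ndufa5 share 1 NRF1 match, so that per gene the NRF1 share was 9 of 40 (22.5%), against 13.2% of genes tested here. At least 1 of the first 3 motifs was present for 19 of the 40 genes. These matches are descriptions of letters, not of binding.

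The 250 bases before the start are printed for the members with the smallest p in the higher direction (Ndufa9 and Ndufb5), for Ndufaf1, the one with the smallest p in the lower direction, and for Ndufb4, which had the most NRF1 matches. They read 5′ to 3′ on the strand of the gene, and capitals mark NRF1 or ETS matches. The windows lie at chr6:126849145-126849394 (Ndufa9, minus), chr3:32736813-32737062 (Ndufb5, plus), chr2:119662835-119663084 (Ndufaf1, minus) and chr16:37654369-37654618 (Ndufb4, minus).
Ndufa9: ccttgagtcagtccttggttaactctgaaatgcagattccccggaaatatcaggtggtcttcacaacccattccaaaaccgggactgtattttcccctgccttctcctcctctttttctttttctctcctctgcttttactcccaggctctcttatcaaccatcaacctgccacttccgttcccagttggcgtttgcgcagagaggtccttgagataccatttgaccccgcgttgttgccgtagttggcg
Ndufb5: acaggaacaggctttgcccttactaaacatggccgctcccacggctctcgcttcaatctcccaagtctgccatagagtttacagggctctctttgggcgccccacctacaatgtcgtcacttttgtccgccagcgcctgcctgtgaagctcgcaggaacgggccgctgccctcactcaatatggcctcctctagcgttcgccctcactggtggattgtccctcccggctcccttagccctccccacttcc
Ndufaf1: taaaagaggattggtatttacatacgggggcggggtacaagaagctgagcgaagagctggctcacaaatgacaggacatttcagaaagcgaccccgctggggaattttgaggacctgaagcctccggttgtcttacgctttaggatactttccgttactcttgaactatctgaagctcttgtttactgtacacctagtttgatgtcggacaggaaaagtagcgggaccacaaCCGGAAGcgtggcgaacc
Ndufb4: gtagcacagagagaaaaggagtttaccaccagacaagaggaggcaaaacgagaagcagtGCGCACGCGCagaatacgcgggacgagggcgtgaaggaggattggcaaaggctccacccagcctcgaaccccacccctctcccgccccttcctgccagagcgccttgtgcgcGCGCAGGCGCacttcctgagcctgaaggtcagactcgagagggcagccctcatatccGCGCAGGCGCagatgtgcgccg
Ndufb4 holds 3 NRF1 matches and Ndufaf1 a single ETS match, while Ndufa9 and Ndufb5 have no match of either in these stretches. Ndufb4 itself was at 103 and 88.6 CPM in Vav1R63W cells and 107 and 87.9 CPM in libraries of the Themis1-deleted label, with overlap. Ndufa9 has its YY1 match 29 bases after the start, outside the printed stretch.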

How the data were processed

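RNA was sequenced from 4 libraries, 2 per group, assigned to groups and replicate numbers by their titles. Reads were processed by the authors with FastQC, Trim Galore, STAR and MultiQC, per the submitters' processing notes, which name the build mm9, while the design text names Ensembl release 90. The deposited files hold raw read counts per gene, unstranded and per strand, and the authors' deposited table holds the same unstranded counts with a log2 fold change, p-values and adjusted p-values from DESeq2 run through SARTools, per the file headers and the design text. The unstranded counts were used. They equal column 1 of the count files for all 52636 genes in each library. Unassigned reads (21.1% to 23.1% of each library) were left out.

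Symbols, gene types and exon lengths came from GENCODE M21 (GRCm38), matched by gene ID. CPM is by library total, and log2 differences use a prior of 1 CPM. Tests were fitted on all genes with edgeR 4.0.16 in R 4.3.3 (TMM, filterByExpr with a minimum count of 10 and a minimum total count of 15, robust quasi-likelihood F test, two-sided), called at an adjusted p under 0.05. DESeq2 1.42.0, limma-voom (limma 3.58.1), other scalings, filters, count columns, a replicate block and leaving out each library were alternatives. Scripts were tested on simulated data. An exact permutation test of 2 against 2 libraries cannot go below p = 0.333 and was not used. Near-identical copies were transcripts of other genes with at least 250 aligned bases at 95% identity.

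Members and lists were chosen with earlier results of these data known. A single member is not reported here by name. Given with every library's value are the other nuclear core subunits, the 5 members with the smallest p in each direction, the assembly factors, Ndufa4, Ndufa4l2 and Ndufab1. Of each other list the 2 genes with the smallest p are eligible. Other members named with values (Ndufa5, Ndufa13, Ndufb3 and Ndufb4 among them), Ndufa1 and the other levels per kilobase, and Foxp3 and Il2ra were chosen after their values were seen.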

Additional observations from a re-analysis of the deposited data

How the results depend on the processing

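The count of members called was 0 under every alternative that kept all 4 libraries. These were DESeq2, limma-voom, both other scalings, both filters, the strand column with more reads, the sum of both strand columns and the replicate block. Only DESeq2 called any gene of the whole table (1.92%), so under the others a count of 0 is not particular to the members. The median log2 difference of members stayed between -0.05 and 0.05, and its sign turned without Vav1R63W replicate 2 (-0.02) and with replicate 3 of the Themis1-deleted label left out (-0.05). The number of members without overlap was 20 under each scaling (33.8% of all genes) and with no filter (27.8%), 18 with either strand count (33.7%), and 31 to 34 with a library left out, where 61.0% to 73.1% of all genes tested did not overlap either, because fewer libraries must be separated. Among 273 refits of the 21 named members with a fold change, 268 kept their sign and the other 5 each left out a library. This count is no measure of stability. Most refits reused the same 4 libraries, and the named members include the 5 with the smallest p in each direction from them. With each library left out in turn, the log2 fold change ran from -0.27 to 0.33 for Ndufv1, -0.20 to 0.97 for Ndufaf3, -1.05 to 0.11 for Ndufaf4 and -0.082 to 0.40 for Ndufaf8. The cause of these changes of sign was not tested.

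Replicates share numbers 2 and 3 across groups, but nothing in the labels says that a number marks a shared source. Deviations of the libraries numbered 2 from their group means had a correlation of 0.02 across genes, which are not independent replicates. With the replicate number as a block, 0 members and 0 genes were called, and 163 genes had an unadjusted p under 0.05 beside 509 without it. The strand sum and the overlap counts at 100 CPM and with a library left out were added after seeing the data. Ndufaf2 had as few as 46 reads and Ndufaf5 as few as 47 in a library, and Ndufb2, outside the assembly factors, as few as 110. Whether depth bears on the spread of the assembly factors was not tested.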
